A study of Mus musculus with 9 samples.

Results

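Elongating spermatids (ES) were compared with round spermatids (RS) in 6 of the 9 deposited RNA libraries, 3 ES and 3 RS, over all 50493 features of the deposited count table. The other 3 libraries came from pachytene spermatocytes (PAC), the preceding meiotic cells, and their levels are given beside the comparison. All groups carried the wild-type genotype and came from mouse testis, while the labels name no treatment, strain, age, number of animals or way of isolating the cells. The 3 libraries of a group are biological replicates per the labels, but nothing ties them to separate animals, so a p-value measures only the spread between these libraries. Total RNA was depleted of ribosomal RNA, primed at random and sequenced with strand kept. The study as a whole concerns a testis long non-coding RNA and PIWIL1, and the ES against RS comparison addresses how the transcript pool changes as the spermatid elongates.

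A round spermatid is a haploid cell with a round, transcribing nucleus that is building the acrosome and the axoneme. During elongation the histones are exchanged for transition proteins and then protamines, the nucleus condenses, transcription stops, and the outer dense fibres, fibrous sheath and mitochondrial sheath are laid around the axoneme. Many messages for these late structures are made in round spermatids, stored in ribonucleoprotein particles and translated later, so an RNA level in an elongating spermatid reflects both what was made and what was kept. Elongating spermatids are held in pockets of Sertoli cells, the somatic nurse cells of the tubule, while Leydig cells and blood lie outside it.

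Total counts were 22910156 to 24419245 in ES and 30238191 to 33801617 in RS. Levels below are CPM, that is counts divided by library size, after TMM scaling, which sets the libraries so that most features do not differ; they are compared between libraries, not between genes, since no gene length enters. Differences are log2 fold changes of ES over RS from edgeR's quasi-likelihood test, with standard error (SE) and a p adjusted by Benjamini-Hochberg over the 26030 features with enough counts to be tested. A feature was called at an adjusted p below 0.05. 1 ES library was unlike its fellows: in replicate 1, 4 assembled transcripts without a gene name took 6.4% of the counts, against 0.929% and 2.42% in ES replicates 2 and 3 and at most 0.00545% in RS. In bulk libraries, fewer cells of a type and less RNA per cell cannot be told apart.

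Across all features, 6374 were higher and 5752 lower in ES, which is 24.5% and 22.1% of those tested, or 46.6% together, with a median log2 difference of 0.05. With a change of at least 2-fold as well, 17.7% were higher and 13.3% lower. The split depended on scaling. Higher features made up 52.6% of the calls with TMM, 61% with DESeq2's kind of size factors in edgeR (median log2 0.19) and 34.4% with total counts alone (median log2 -0.28), and the counts of every list move with it. Among 14836 protein-coding genes tested, 4719 (31.8%) were higher and 3220 (21.7%) lower. These shares are a background for the gene lists below. Of the 4719, 2269 lay above and 1470 below every PAC library, and of the 3220, 1867 lay below. All ES libraries lay above all RS libraries in 30.2% of features and below them in 29.3%, which is the background for groups that do not overlap.

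**Figure D1:**
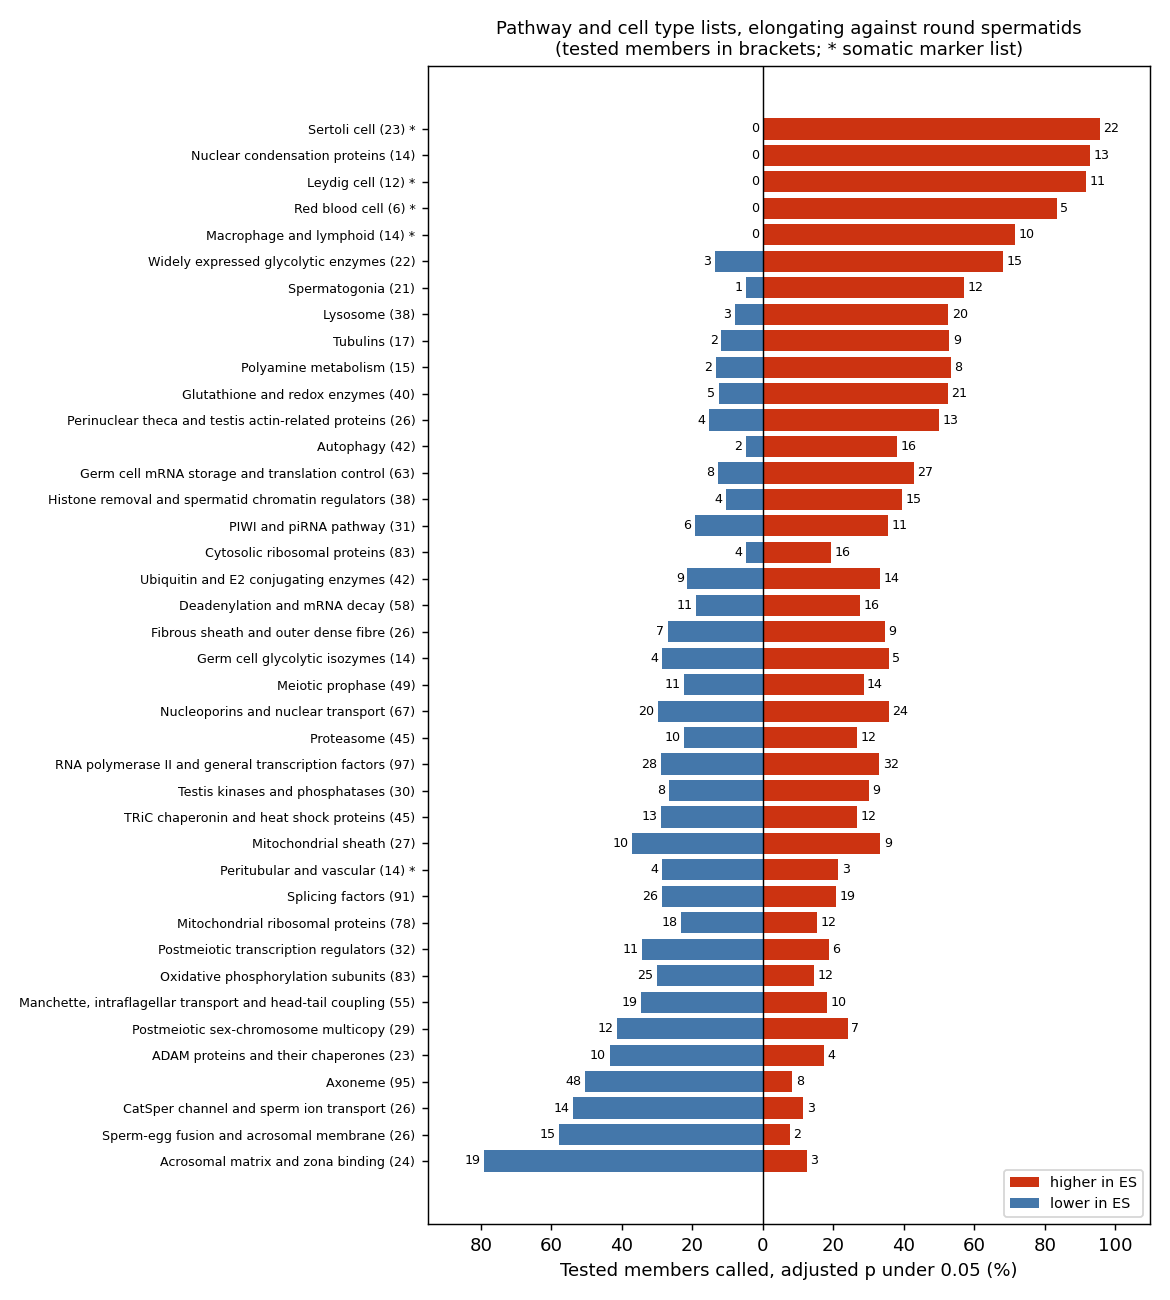
Share of the tested members of each pathway or cell type list called higher (right, red) or lower (left, blue) in ES than in RS at an adjusted p below 0.05. The horizontal axis is in percent of tested members, whose number stands in brackets, and the number at each bar end is the count called; 13 of 14 nuclear condensation genes were higher, and 19 of 24 acrosomal matrix genes were lower.

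The genes that package the sperm nucleus rose. Of 14 tested nuclear condensation genes out of 15 listed, 13 were higher in ES and none was lower, with a median log2 difference of 1.22, against 24.5% higher over all features. Without ES replicate 1 the median was 0.62 and 10 were called higher. Prm1, the first protamine (chromosome 16, 10796332 to 10796823, build GRCm38.p6), stood at 17288, 9474 and 8353 CPM in the 3 ES libraries and at 3808, 4544 and 4654 CPM in RS, a log2 difference of 1.43 (SE 0.27, adjusted p = 0.00158). Every ES library lay above every RS library, and ES replicate 1 was the highest by far. Prm2, the second protamine, whose precursor is processed as the nucleus condenses (chromosome 16, 10791377 to 10792105), stood at 3808, 2532 and 3053 CPM in ES and at 747, 765 and 772 CPM in RS (log2 2.04, SE 0.19, adjusted p = 1.1e-05). Here the ES libraries were closer together and again did not overlap RS.

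The transition proteins, which hold the DNA between histones and protamines, were less evenly raised. Tnp1 stood at 16195, 7643 and 5475 CPM in ES and at 4252, 4926 and 4735 CPM in RS (log2 1.08, SE 0.35, adjusted p = 0.0296). Without ES replicate 1, its highest library, the log2 difference was 0.50 (adjusted p = 0.0739), with total counts alone it was 0.69 (adjusted p = 0.0867), and the call was also lost without any 1 RS library. Tnp2 stood at 4701, 1898 and 1950 CPM in ES and at 1344, 1324 and 1211 CPM in RS (log2 1.14, SE 0.34, adjusted p = 0.0206), and it lost its call with total counts alone (adjusted p = 0.0568) and without any 1 RS library, while without ES replicate 1 the log2 difference was 0.57 (adjusted p = 0.0358). Prm3, a protamine-like gene of the same chromosome 16 cluster, stood at 325, 116 and 122 CPM in ES and at 80.3, 81 and 68.2 CPM in RS (log2 1.29, SE 0.35, adjusted p = 0.0125), and without ES replicate 1 the log2 difference was 0.64 (adjusted p = 0.00315).

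Histone variants of the spermatid moved the same way. H2al2a, a short H2A variant that enters nucleosomes with the transition proteins, rose from a mean of 346 CPM in RS to 914 CPM in ES (log2 1.40, SE 0.26). Hmgb4 rose from 986.5 to 1767 CPM and H1f7, the linker histone of elongating spermatids, from 1217 to 2294 CPM. The exception was Hils1, another linker histone, with 1236 CPM in RS and 1545 CPM in ES, which did not pass the test. The largest rises on the list were of another kind: H1f6, the testis linker histone of spermatocytes, stood at 16.7 CPM in RS, 274 CPM in ES and 1699 CPM in PAC, and H2bc1, the testis H2B, at 12.4, 133 and 606 CPM. Those genes, with H2ac1, were called higher in ES yet lay below every PAC library, while the other 10 risers lay above every PAC library. The number called higher was 9 with total counts alone or without any 1 RS library, and 8 with FPKM values and a pseudocount of 0.1.

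Genes of histone removal and spermatid chromatin control, in contrast, were divided. Of 38 tested, 15 were higher and 4 lower (median log2 0.26), and 8 of the 15 risers lay below every PAC library. With total counts alone 11 were lower and the median was -0.06. Tssk6, a kinase needed for nuclear condensation, stood at 3098, 2653 and 2351 CPM in ES against 571, 649 and 657 CPM in RS (log2 2.11, SE 0.18, adjusted p = 6.96e-06). Hdac1, a histone deacetylase, fell from 162 to 93.6 CPM and Hdac2 from 27.7 to 19.4 CPM. Hdac1 was also below every PAC library.

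Several of the genes that rose carry, just before a start of transcription, a match to the cAMP response element (CRE), the binding site of the CREM factor that drives many spermatid genes. The motif searched was TGACNTCA on both strands, where the reverse strand reads TGANGTCA, in the RefSeq promoter table of build GRCm38.p6, which spans 250 bases before to 50 after each start. It was present in 8.83% of the 32851 promoters, and the full palindrome TGACGTCA in 1.79%. Shown are bases 110 to 21 before a start in 6 genes that rose and hold a match in this stretch, on the strand of the gene, with the matches in capitals. Where a gene has several promoters, the first with a match in this stretch is shown. Gapdhs holds a pair of matches, before a start that lies inside the gene's span of 30729779 to 30744791.
Prm1: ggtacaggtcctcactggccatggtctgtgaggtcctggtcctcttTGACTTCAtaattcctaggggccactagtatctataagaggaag
Prm3: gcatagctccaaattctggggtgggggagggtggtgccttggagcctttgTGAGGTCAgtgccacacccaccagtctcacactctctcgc
Tnp1: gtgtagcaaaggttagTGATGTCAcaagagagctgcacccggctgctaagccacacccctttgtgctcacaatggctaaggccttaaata
Hmgb4: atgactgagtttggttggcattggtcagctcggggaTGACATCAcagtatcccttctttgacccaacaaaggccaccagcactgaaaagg
Akap4: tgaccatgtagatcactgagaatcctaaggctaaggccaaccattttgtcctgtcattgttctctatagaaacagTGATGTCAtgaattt
Gapdhs: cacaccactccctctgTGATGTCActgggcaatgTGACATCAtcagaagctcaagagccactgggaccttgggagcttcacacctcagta

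The stretches lie at chr16:10796844-10796933 (minus strand) for Prm1, chr16:10790935-10791024 (minus) for Prm3, chr1:73015920-73016009 (minus) for Tnp1, chr4:128260916-128261005 (minus) for Hmgb4, chrX:7067405-7067494 (plus) for Akap4 and chr7:30743702-30743791 (minus) for Gapdhs. Genes that rose and genes that fell both held the match. Counting genes with a match in any of their promoters, it was present in 1278 of 11981 tested protein-coding genes (10.7%). By the same count it was present in 5 of 14 nuclear condensation genes, 6 of 21 fibrous sheath and outer dense fibre genes and 7 of 20 acrosomal matrix genes, a list in which 19 of 24 fell, and in 3 of 80 axoneme genes. Among the tested protein-coding genes in the table, 8.7% of those higher in ES and 16% of those lower in ES held it. Crem itself fell, from 675, 666 and 612 CPM in RS to 415, 404 and 427 CPM in ES (log2 -0.65, SE 0.11, adjusted p = 0.000708), with no overlap between the groups.

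Among the accessory structures of the tail, several core genes rose while the list as a whole was divided. Of 26 tested genes of the fibrous sheath and outer dense fibres, 9 were higher (34.62%) and 7 lower (26.92%), near the 31.8% and 21.7% of all coding genes, with a median log2 difference of 0.04. The 9 risers all lay above every PAC library, and the same number was called with total counts alone and with FPKM values. Together the 27 listed genes took 3.43% to 3.52% of all counts in ES and 1.66% to 1.79% in RS. Such a sum follows the most abundant genes, and Oaz3 alone rose from a mean of 3053 to 15730 CPM. Oaz3, the testis antizyme, which is also found with the tail fibres (chromosome 3, 94433387 to 94436651), stood at 20408, 14352 and 12430 CPM in ES and at 2800, 3221 and 3140 CPM in RS (log2 2.37, SE 0.19, adjusted p = 5.45e-06). Akap4, the main anchoring protein of the fibrous sheath (chromosome X, 7067515 to 7078609), stood at 5346, 5332 and 7295 CPM in ES and at 1633, 1742 and 1968 CPM in RS (log2 1.75, SE 0.26, adjusted p = 0.000277). Neither gene's groups overlapped.

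Odf1, a core outer dense fibre protein (chromosome 15, 38219203 to 38226735), stood at 3194, 2955 and 2197 CPM in ES and at 593, 674 and 764 CPM in RS (log2 2.04, SE 0.18, adjusted p = 8.81e-06). Odf2, another dense fibre protein, rose from 3965 to 6536 CPM, Tcp11 from 846 to 2749 CPM, Fscn3, a testis fascin, from 477 to 1344 CPM, and Cabyr from 158 to 317 CPM. Other sheath genes did not pass the test, among them Akap3 (579.9 CPM in RS, 612 CPM in ES), Fsip2 (1248 and 1041 CPM) and Ropn1 (686 and 585 CPM). Among the members that fell, Fsip1 fell from 141 to 47.1 CPM, Spag8 from 154 to 61.6 CPM and Ropn1l from 403 to 226 CPM.

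The mitochondrial sheath, which wraps the midpiece, had 9 of 27 genes higher and 10 lower (median log2 -0.07). These are 33.33% and 37.04%, against 31.8% and 21.7% of all coding genes. The number higher was 5 with total counts alone or without any 1 RS library. Smcp, a cysteine-rich protein of the mitochondrial capsule (chromosome 3, 92583866 to 92589073), stood at 840, 1114 and 1589 CPM in ES and at 260, 227 and 232 CPM in RS (log2 2.30, SE 0.31, adjusted p = 0.000192). Tppp2, a tubulin-binding protein, stood at 739, 765 and 674 CPM in ES and at 109, 147 and 152 CPM in RS (log2 2.41, SE 0.17, adjusted p = 2.81e-06). Both were far above their RS range in every ES library. Gk2, a testis glycerol kinase, fell from 1056 to 536 CPM, and the outer membrane channels Vdac2 and Vdac3 fell from 789 to 446 CPM and from 940.2 to 597 CPM. Gpx4, the selenoprotein of the capsule, had 1801 CPM in RS and 2167 CPM in ES and did not pass the test.

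In the perinuclear theca, the protein shell between acrosome and nucleus, 13 of 26 genes were higher and 4 lower (median log2 0.60), and all 13 lay above every PAC library. Among all coding genes 31.8% were higher and 21.7% lower, and 2269 of the 4719 risers lay above every PAC library. The most abundant risers were Spata20, from 1708 to 2468 CPM (log2 0.53), and Plcz1, from 913 to 1403 CPM (log2 0.62). Both lost the call with total counts alone (adjusted p = 0.333 and 0.162). Actl9, a testis actin-related protein, stood at 1495, 1024 and 1011 CPM in ES and at 536, 595 and 616 CPM in RS (log2 1.01, SE 0.17, adjusted p = 0.000609). Its relative Actl7b went the other way, with 196, 197 and 176 CPM in ES and 561, 514 and 501 CPM in RS (log2 -1.47, SE 0.13, adjusted p = 7.03e-06). Actl11 rose from 45.4 to 237 CPM, Tex44 from 67 to 271 CPM and Wbp2nl, a theca protein of the egg-facing surface, from 58.9 to 156 CPM. The count of risers was 7 with total counts alone and without RS replicate 3, and 8 without RS replicate 1.

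**Figure D2:**
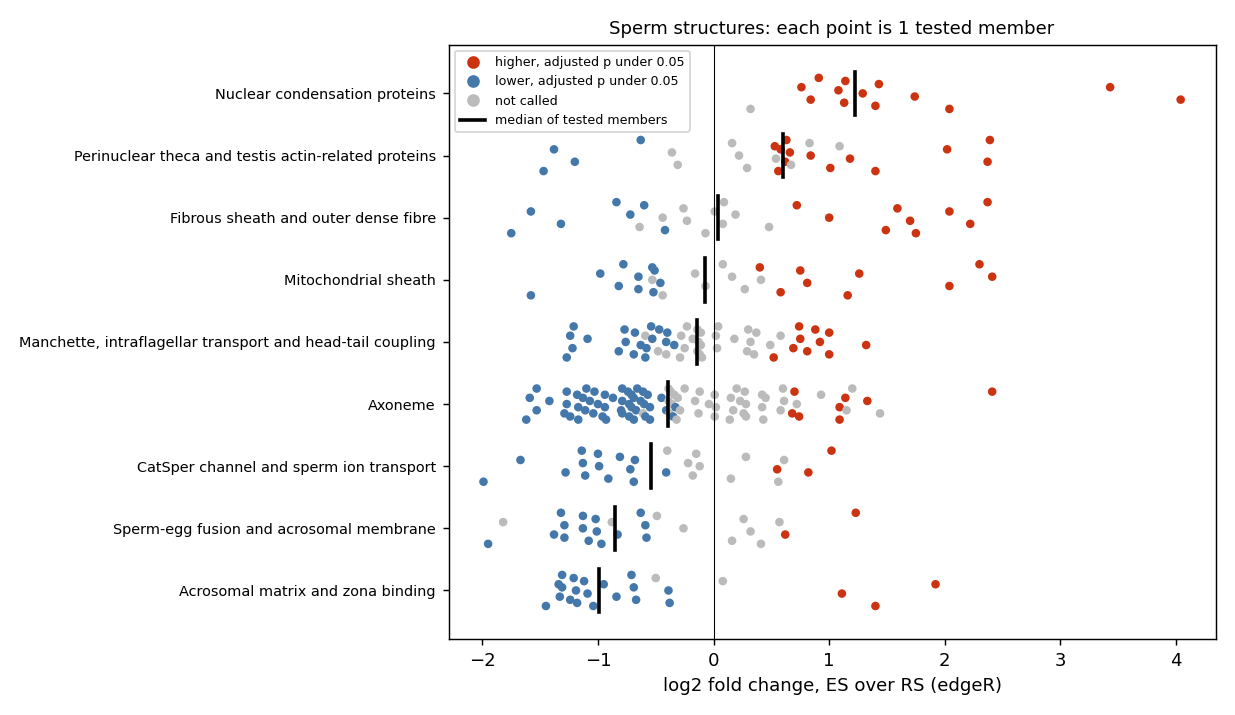
log2 fold change of ES over RS (horizontal axis) for each tested gene of 9 sperm structures, 1 point per gene, with the median of the tested members as a black line; points are red or blue where called higher or lower at an adjusted p below 0.05. The medians run from 1.22 for nuclear condensation to -0.99 for the acrosomal matrix.

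Acrosomal genes fell. Of 24 tested genes of the acrosomal matrix and zona binding, 19 were lower and 3 higher (median log2 -0.99), against 22.1% lower over all features. With total counts alone the same numbers were found. Of the 19, 8 lay below every PAC library and 7 above. Zpbp, a zona-binding protein of the acrosome (chromosome 11, 11279624 to 11464223), stood at 290, 314 and 304 CPM in ES and at 618, 649 and 598 CPM in RS (log2 -1.04, SE 0.12, adjusted p = 4.49e-05). Spam1, the sperm hyaluronidase, fell from 180 to 66.1 CPM, Spaca3 from 315 to 125 CPM, Acrv1 from 496 to 219 CPM and Spesp1 from 521 to 221 CPM. Spam1 had the deepest fall on the list, with a log2 difference of -1.45.

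Acr, the gene of the acrosomal protease acrosin, stood at 28.4, 46.9 and 62.4 CPM in ES and at 68.6, 62.8 and 63.3 CPM in RS. It was lower in each ES library but did not pass the test (log2 -0.50, SE 0.29, adjusted p = 0.187). The 3 members that rose were Crisp2, Sppl2c and Tex101. Crisp2, a cysteine-rich secretory protein found in both the acrosome and the tail fibres, stood at 21034, 17710 and 14474 CPM in ES and at 6149, 6991 and 7000 CPM in RS (log2 1.40, SE 0.16, adjusted p = 4.3e-05). With Crisp2 included, the 25 listed genes together took 1.623% to 1.915% of all counts in ES and 1.291% to 1.356% in RS. Tex101, a surface glycoprotein of spermatocytes and spermatids, rose from 12.4 to 46.8 CPM but had 251 CPM in PAC.

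The genes of sperm-egg fusion and the acrosomal membrane followed, with 15 of 26 lower and 2 higher (median log2 -0.85). Izumo1, the sperm ligand of the egg receptor, stood at 57.5, 65.9 and 68.8 CPM in ES and at 135, 125 and 116 CPM in RS (log2 -0.97, SE 0.14, adjusted p = 0.000156). Spaca1, an inner acrosomal membrane protein, stood at 115, 150 and 129 CPM in ES and at 359, 345 and 322 CPM in RS (log2 -1.38, SE 0.14, adjusted p = 1.89e-05). The groups were apart in both. Spaca6, Dcst1, Tmem95, Tmem81 and Spaca4, other proteins needed for or found at fusion, were all called lower. Izumo2 and Izumo3 were not called. The ADAM family, surface proteins that guide sperm through the oviduct, had 10 of 23 members lower and 4 higher: Adam2 fell from 667 to 379 CPM and its chaperone Clgn from 714 to 438 CPM, while Adam3 (2817 and 2830 CPM) did not pass the test. Ace, whose testis form is shed from the surface, rose from 366 to 988 CPM.

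The CatSper calcium channel and other ion transporters of the flagellum fell in the main, with 14 of 26 lower and 3 higher (median log2 -0.54). Catsper3 fell from 93.3 to 29.4 CPM, Catsper4 from 218 to 98.6 CPM, Catsper2 from 261 to 131 CPM and Efcab9, a channel-bound calcium sensor, from 271 to 112 CPM. Slc9c1, the sperm sodium-proton exchanger, stood at 147, 198 and 178 CPM in ES and at 365, 373 and 387 CPM in RS (log2 -1.11, SE 0.14, adjusted p = 7.35e-05). Catsper1, a pore subunit, stood at 15.7, 27.1 and 45.5 CPM in ES and at 35.9, 29.4 and 34.8 CPM in RS, so its groups overlapped and it was not called (adjusted p = 0.781). The 3 that rose were Atp1a4, the sperm sodium pump, from 713 to 1260 CPM, Adcy10, the soluble adenylyl cyclase, from 718 to 1048 CPM, and Catsperg1, from 49.7 to 100.6 CPM. With total counts alone 1 of the list was called higher and Adcy10 was not called.

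The axoneme itself, the microtubule core built in round spermatids, fell across its parts: 48 of 95 genes were lower and 8 higher, with a median log2 difference of -0.39. The share lower was 50.53%, against 21.7% of all coding genes. Of the 48, 36 were below every PAC library, as were 1867 of the 3220 coding genes that fell. Tekt4, a filament protein inside the microtubule doublets (chromosome 17, 25454549 to 25476602), stood at 226, 244 and 229 CPM in ES and at 777, 733 and 645 CPM in RS (log2 -1.62, SE 0.13, adjusted p = 4.57e-06). Tekt1 stood at 408, 418 and 362 CPM in ES and at 827, 811 and 790 CPM in RS (log2 -1.03, SE 0.12, adjusted p = 5.83e-05). In both, the ES libraries lay close together and far below RS. Further members that fell were Cfap45 (314 to 108 CPM), the radial spoke proteins Rsph1 (191 to 140 CPM) and Rsph6a (271 to 156 CPM), the nexin-dynein regulatory component Drc1 (182 to 93.5 CPM) and the dynein intermediate chains Dnaic1 and Dnaic2.

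Among the 8 axoneme genes that rose, Tppp2, given above with the mitochondrial sheath, had the largest log2 difference (2.41). Others were the long dynein heavy chains Dnah7a, Dnah7c and Dnah2 and the central apparatus genes Spag17 and Cfap46. Dnah7c rose from 267 to 569 CPM, and it has close copies, so reads could be divided among them. This count was the least steady of the list: it was 3 with total counts alone, 4 without RS replicate 2 or without RS replicate 3, 5 without ES replicate 3, 13 with a replicate block and 14 with DESeq2 or with ES and RS libraries alone. The number lower stayed between 41 and 56 over all settings and left-out ES or RS libraries. The manchette, the transient microtubule skirt that shapes the nucleus, with intraflagellar transport and the head-tail joint, had 10 of 55 genes higher and 19 lower, or 6 and 30 with total counts alone. Spem1, which clears the cytoplasm at the neck, stood at 1640, 902 and 908 CPM in ES and at 416, 503 and 464 CPM in RS (log2 1.32, SE 0.24, adjusted p = 0.000915). Spata6, of the sperm neck, rose from 401 to 804 CPM and Hook1, of the manchette, from 806 to 1356 CPM, whereas Sun5, of the head-tail joint, fell from 129 to 53.3 CPM.

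**Figure D3:**
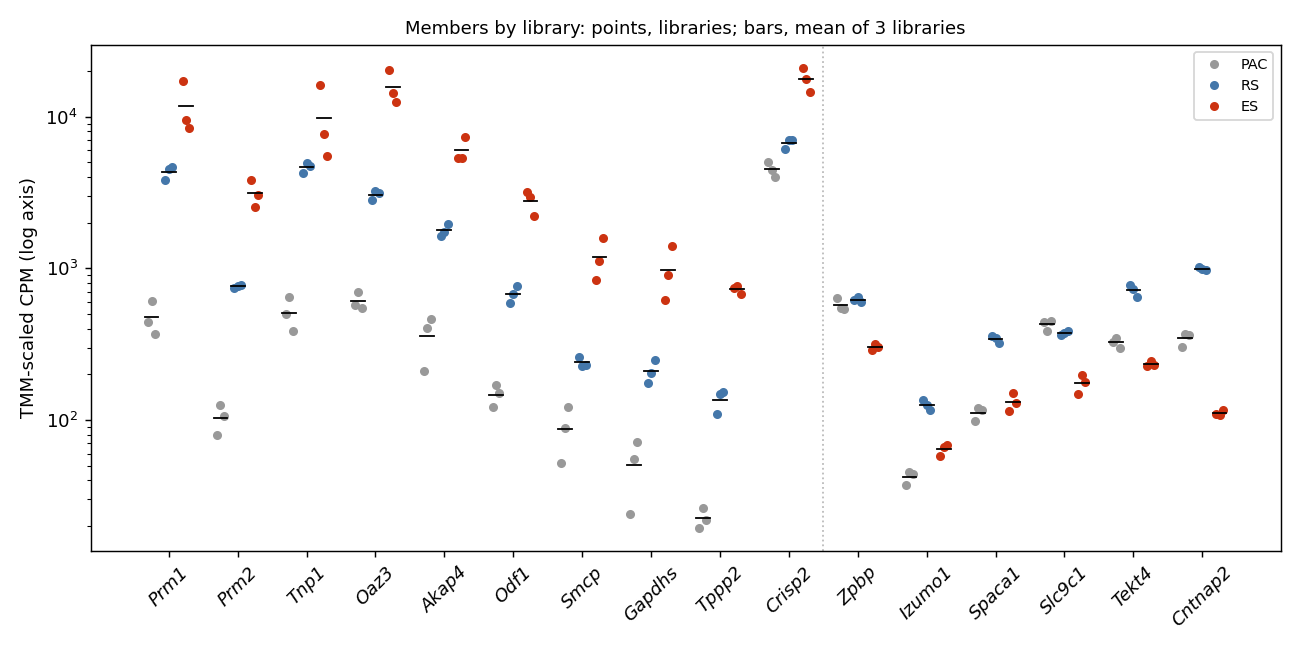
TMM-scaled CPM on a log axis for 16 genes in each of the 3 PAC (grey), 3 RS (blue) and 3 ES (red) libraries, with the mean of each group as a bar; the first 10 genes were higher and the last 6 lower in ES. ES replicate 1 is the highest point for Prm1 and Tnp1 and the lowest ES point for Gapdhs and Smcp.

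Sperm run glycolysis along the fibrous sheath with enzymes of their own. Of 14 tested germ cell isozymes, 5 were higher (35.71%) and 4 lower (28.57%), near the 31.8% and 21.7% of all coding genes. The median log2 difference was 0.31, and it was -0.01 with total counts alone and without ES replicate 3. Gapdhs, the sheath-bound glyceraldehyde phosphate dehydrogenase (chromosome 7, 30729779 to 30744791), stood at 616, 898 and 1401 CPM in ES and at 176, 203 and 248 CPM in RS (log2 2.22, SE 0.41, adjusted p = 0.00183). Hk1, whose germ cell form begins the pathway, stood at 2273, 2608 and 3269 CPM in ES and at 659, 684 and 757 CPM in RS (log2 1.96, SE 0.20, adjusted p = 2e-05). Pgk2, the testis phosphoglycerate kinase, stood at 3141, 3080 and 2327 CPM in ES and at 1088, 1062 and 1144 CPM in RS (log2 1.38, SE 0.15, adjusted p = 2.42e-05). All 3 were above RS in every ES library. Ldhc, the testis lactate dehydrogenase, had 1641, 1764 and 1444 CPM in ES and 1817, 1693 and 1860 CPM in RS, overlapping groups that were not called (adjusted p = 0.353). Ldhal6b, Pdha2, Pfkp and Eno4 were called lower.

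The widely expressed glycolytic enzymes rose more often, 15 of 22 higher and 3 lower (median log2 1.30). They fall into distinct ranges of level. Tpi1 (529 to 1399 CPM), Eno1 (425 to 932 CPM), Pkm (244 to 946 CPM) and Gpi1 (219 to 926 CPM) were already well expressed in RS and rose by log2 differences of 1.13 to 2.08. Ldhb (2.31 to 65.2 CPM), Pfkl (0.312 to 8.38 CPM), Slc2a1 and Hk2 started from 2.31 CPM or less and rose by log2 differences between 2.87 and 4.81, a size that is given with the somatic markers below. Oxidative phosphorylation went the other way, with 25 of 83 subunits lower and 12 higher (median log2 -0.31). Those lower numbered 14 with RLE factors, 16 without RS replicate 2 and 47 with total counts alone.

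The messages of protein and RNA handling changed in part. Of 63 tested genes of germ cell mRNA storage and translation control, 27 were higher and 8 lower (median log2 0.49), and the number higher was 15 with total counts alone. Fxr1, an RNA-binding protein that activates stored messages in late spermatids, stood at 1163, 1079 and 1105 CPM in ES and at 500.1, 533 and 537 CPM in RS (log2 1.09, SE 0.13, adjusted p = 5.31e-05). Cpeb3, a regulator of the poly(A) tail, rose from 25.7 to 93.8 CPM, Eif4e, the cap-binding factor, from 108 to 258 CPM, and Igf2bp3 from 118 to 255 CPM. Ybx2, the main packaging protein of stored germ cell messages, had 679, 512 and 609 CPM in ES and 548, 510 and 489 CPM in RS and was not called (adjusted p = 0.195). Papolb, the testis poly(A) polymerase, fell from 1309 to 822 CPM and Adad1 from 416 to 219 CPM.

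Piwil1, the PIWI protein named in the study, stood at 23.6, 32.7 and 37 CPM in ES and at 7.96, 5.71 and 8.12 CPM in RS (log2 2.10, SE 0.22, adjusted p = 2.47e-05). The groups did not overlap, but PAC had 143, 143 and 204 CPM. This order, high in PAC, low in RS and between in ES, was shared by 8 of the 11 PIWI pathway genes called higher. The 11 were 35.48% of the 31 PIWI and piRNA pathway genes tested, near the 31.8% of all coding genes. With FPKM values 7 were called higher. Tdrd1 had 135 CPM in PAC, 10.2 CPM in RS and 42.1 CPM in ES, and Piwil2 had 217, 31.6 and 73.5 CPM. The 6 members that fell included Mael, from 2536 to 1745 CPM, Tdrd6, from 1121 to 748 CPM, and Tex15, from 654 to 246 CPM. Mael was not called with RLE factors. Kif17, a motor of the chromatoid body and the manchette, was the riser above every PAC library (325 to 597 CPM).

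The same order was common among meiotic genes. Of 49 tested genes of meiotic prophase, 14 were higher (28.57%) and 11 lower (22.45%), near the 31.8% and 21.7% of all coding genes. With total counts alone 18 were lower. In the main fit, 10 of the 14 risers lay below every PAC library. Spata22, for example, had 41.9 CPM in PAC, 1.82 CPM in RS and 9.2 CPM in ES. Syce2, a central element protein of the synaptonemal complex, did not follow it, with 48.2 CPM in PAC, 137 CPM in RS and 483 CPM in ES. Over all features, 1752 of the 6374 features higher in ES lay below every PAC library and 3556 lay above. Whether PAC RNA in the ES libraries contributes to these values was not tested.

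Other cell machinery showed few members with large rises. Among all coding genes 31.8% were higher and 21.7% lower. The shares were 35.82% and 29.85% for nuclear transport and 32.99% and 28.87% for the RNA polymerase II list. They were 20.88% and 28.57% for splicing factors and 19.28% and 4.82% for cytosolic ribosomal proteins. Nuclear transport was split, with 24 of 67 genes higher and 20 lower: Kpna2, an importin, stood at 679, 815 and 688 CPM in ES against 1706, 1787 and 1730 CPM in RS (log2 -1.26, SE 0.13, adjusted p = 2.22e-05), and Kpna6 fell from 965 to 452 CPM, while Rangap1 rose from 256 to 549 CPM and Rcc1, the Ran exchange factor on chromatin, from 104 to 385 CPM. Splicing factors were 19 higher and 26 lower of 91, and 16 of the 19 lay below every PAC library; the number higher was 11 with total counts alone. RNA polymerase II and general transcription factors were 32 higher and 28 lower of 97, with 21 of the 32 below every PAC library. Cytosolic ribosomal proteins were 16 higher and 4 lower of 83, and with total counts alone 9 were higher and 27 lower; without ES replicate 1, 11 were lower. The proteasome (12 higher and 10 lower of 45) and its ubiquitin enzymes (14 and 9 of 42, or 10 and 18 with total counts alone) were near the shares over all coding genes. Without ES replicate 2, 7 proteasome genes were higher, as they were without RS replicate 1 or 2, and with total counts alone 6 were.

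Autophagy, by which the late spermatid takes down organelles, had 16 of 42 genes higher and 2 lower (median log2 0.27, or -0.03 with total counts alone). The share higher was 38.1%, near the 31.8% of all coding genes, and 11 were higher with total counts alone. The share lower was 4.76%, against 21.7% of coding genes, and 5 were lower with total counts alone. Nbr1, a cargo receptor, stood at 4102, 3113 and 3488 CPM in ES and at 975, 1056 and 1123 CPM in RS (log2 1.76, SE 0.16, adjusted p = 8.32e-06). Tax1bp1, another receptor, rose from 168 to 525 CPM, Gabarapl1, an ATG8 protein, from 344 to 828 CPM, and Atg9a from 133 to 353 CPM. Polyamine metabolism had 8 of 15 higher and 2 lower, or 5 higher with total counts alone: besides Oaz3, its partner Azin2, the testis antizyme inhibitor, stood at 1657, 1477 and 997 CPM in ES and at 213, 279 and 293 CPM in RS (log2 2.40, SE 0.22, adjusted p = 1.07e-05).

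Testis kinases and phosphatases had 9 of 30 higher (30%) and 8 lower (26.67%), near the 31.8% and 21.7% of all coding genes. With total counts alone 15 were lower. Besides Tssk6, the testis serine kinases Tssk2 (590 to 1246 CPM) and Tssk3 (119 to 364 CPM) rose, and their relatives Tssk4 (256 to 99.3 CPM) and Tssk5 (25.2 to 8.32 CPM) fell. Prkar2a, a regulatory subunit of protein kinase A that docks on AKAP proteins, rose from 186 to 591 CPM, while Prkar1a fell from 139 to 91.9 CPM. Chaperones and heat shock proteins had 12 of 45 higher (26.67%) and 13 lower (28.89%). Mitochondrial ribosomal proteins had 12 of 78 higher (15.38%) and 18 lower (23.08%), or 5 and 29 with total counts alone.

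Among postmeiotic transcription regulators, 11 of 32 fell and 6 rose (median log2 -0.21). Foxj1, a regulator of cilium genes, fell from 255 to 64.2 CPM, Hsf2, a heat shock factor, from 157 to 51 CPM, and Sox5 from 312 to 128 CPM. Spz1, a basic helix-loop-helix factor, rose from 1191 to 2433 CPM. The sex chromosomes differed in their shares. Of 183 tested coding genes on Y, 146 were lower and 4 higher (median log2 -1.77), and the number lower was 142 with RLE factors and 153 with total counts alone. Many of them are near-identical copies whose reads could be divided, so single values are uncertain. Single-copy Y genes with clear levels fell too, such as Eif2s3y, from 84.4 to 30.9 CPM, Uba1y, from 55.5 to 26.2 CPM, and Usp9y, from 34.3 to 20.6 CPM, whereas Ddx3y rose from 3.14 to 6.87 CPM. On X, 241 of 661 coding genes were higher (36.46%) and 199 lower (30.11%), against 31.98% and 20.55% on autosomes.

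Outside the lists, the most abundant risers were Acsl1, Pebp1, Cabs1, Clpb, Sord and Ccdc136. Acsl1, a long-chain fatty acid CoA ligase, stood at 7720, 6682 and 6429 CPM in ES and at 1423, 1511 and 1590 CPM in RS (log2 2.20, SE 0.15, adjusted p = 2.81e-06). Cabs1, a calcium-binding spermatid protein, stood at 5920, 4567 and 3996 CPM in ES and at 1008, 1158 and 1192 CPM in RS (log2 2.11, SE 0.18, adjusted p = 7.51e-06). Sord, sorbitol dehydrogenase, rose by a log2 difference of 1.62 and Pebp1, a kinase inhibitor protein, by 1.40. All of these lay above RS in every ES library.

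The deepest fall of an abundant gene was that of Cntnap2, a cell adhesion protein best known from neurons. It stood at 109, 107 and 117 CPM in ES and at 1019, 985 and 980 CPM in RS (log2 -3.16, SE 0.13, adjusted p = 2.09e-07), with 305, 367 and 363 CPM in PAC. Thus the RS libraries were the highest of the 3 cell types and the ES libraries the lowest. The other abundant genes that fell were Lrrc34 (log2 -1.52), Ggnbp1 (-1.20), Gm11837 (-1.10), 1700001F09Rik (-1.77) and Cast (850.3 to 425 CPM). Cast encodes calpastatin, an inhibitor of calpain proteases.

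Among non-coding genes with a symbol, 1700027A15Rik stood at 2866, 2030 and 1384 CPM in ES and at 441, 624 and 692 CPM in RS (log2 1.84, SE 0.29, adjusted p = 0.000454). It lies at chromosome 1, 73016036 to 73025508, next to Tnp1 at 73015074 to 73015899. Wbscr25 stood at 1694, 1027 and 1011 CPM in ES and at 232, 227 and 204 CPM in RS (log2 2.49, SE 0.20, adjusted p = 5.64e-06). Both were highest in ES replicate 1 and clear of RS in all ES libraries. Phf8-ps, a pseudogene, stood at 78.6, 96.5 and 82.3 CPM in ES and at 325, 326 and 297 CPM in RS (log2 -1.88, SE 0.14, adjusted p = 3.97e-06), and Slco6b1's non-coding transcript fell by 1.57 on the log2 scale. Malat1, a nuclear RNA found in most cells, varied widely in ES, at 38.8, 88.6 and 155 CPM against 128, 123 and 141 CPM in RS, and was not called (adjusted p = 0.467).

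Of 4295 RefSeq non-coding transcripts tested, 745 were lower (17.35%) and 476 higher (11.08%), both below the 22.1% and 24.5% of all features. Of 6704 assembled transcripts 1731 were lower (25.82%) and 1149 higher (17.14%). With RLE factors the numbers were nearly level, 636 lower and 587 higher for RefSeq and 1459 and 1379 for assembled transcripts, and with total counts alone they were 1130 and 289, and 2392 and 722. The number of assembled transcripts called higher was 765 without ES replicate 1 and 761 without RS replicate 1. Among the assembled ones, MSTRG.15178.1 had 29694, 2641 and 8525 CPM in ES and 3.9, 7.98 and 19.4 CPM in RS. The ES libraries differed among themselves by more than 10-fold in this transcript, whose position in the genome was not analysed here.

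Somatic RNA was measured apart from these changes, through marker lists. Of 23 tested Sertoli cell markers, 22 were higher in ES and none was lower, with a median log2 difference of 4.75. In this and the other marker lists, genes low in RS could enter the test through the ES or PAC libraries. Of 12 Leydig markers 11 were higher (median 3.39), of 6 red blood cell markers 5 (median 6.56) and of 14 macrophage and lymphoid markers 10 (median 1.24), while 14 peritubular and vascular markers gave 3 higher and 4 lower, or 2 higher and 1 lower without RS replicate 1. The same 22 Sertoli and 5 red blood cell counts were found with total counts alone and with FPKM values and a pseudocount of 0.1 or 1. The Leydig count was less steady: 9 were higher with ES and RS libraries alone, 9 with FPKM values and a pseudocount of 0.1 (median 1.79) and 7 with a pseudocount of 1 (median 0.55), and 1 was lower in both FPKM fits. Clu, clusterin, an abundant Sertoli product, stood at 84.6, 110 and 105 CPM in ES and at 2.29, 2.05 and 2.1 CPM in RS (log2 5.54, SE 0.22, adjusted p = 1.73e-07). Hbb-bs, a beta-globin, stood at 100.8, 91.3 and 63.6 CPM in ES and at 0.688, 1.22 and 1.45 CPM in RS (log2 6.23, SE 0.34, adjusted p = 1.3e-06). Every ES library carried both markers at levels far above RS.

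Markers of a type were not all present. Amh and Fshr, which mark immature and hormone-responsive Sertoli cells, were at 0.094 and 0.0316 CPM in ES, Lhcgr, the Leydig hormone receptor, at 0.0644 CPM, all below the level of 3 counts in a library (0.133 to 0.162 CPM in ES), and Cd3e, of T cells, had no count. Some Sertoli markers were also measured well in RS, namely Amhr2 (47.6 CPM in RS, 186 CPM in ES) and Cyp19a1 (17.6 and 71.4 CPM, with 1220 CPM in PAC). All 25 listed Sertoli markers summed to 785, 825 and 689 CPM in ES, 90.5, 87.2 and 86.3 CPM in RS and 1457, 1249 and 1379 CPM in PAC, so that PAC was highest. Without Amhr2 and Cyp19a1, left out after their values were seen because they reached 10 CPM in RS, the other 23 summed to 500.1, 558 and 469 CPM in ES, 22.6, 23.5 and 22 CPM in RS and 144, 100 and 60.2 CPM in PAC. The choice by RS level lowers the RS sum, so no ratio to RS is given for it. Leydig markers summed to 38.7, 35.7 and 30.8 CPM in ES, 4.18, 4.08 and 4.35 CPM in RS and 149, 116 and 157 CPM in PAC. Red blood cell markers summed to 230, 202 and 154 CPM in ES, 2.62, 3.19 and 3.74 CPM in RS and 7.25, 5.59 and 1.98 CPM in PAC.

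**Figure D4:**
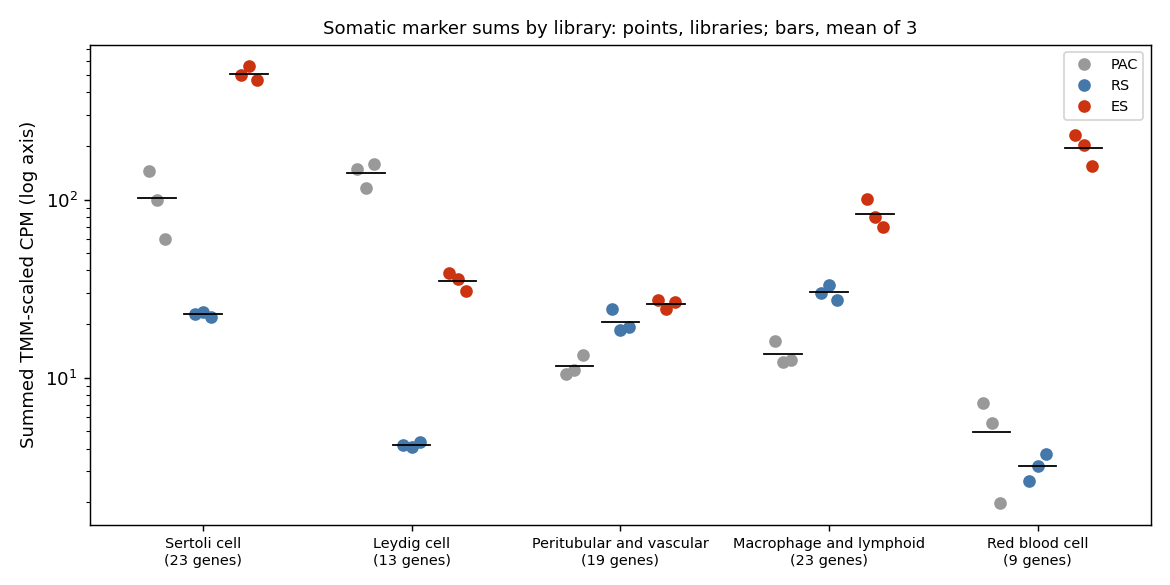
Summed TMM-scaled CPM (log axis) of 5 somatic marker lists in each PAC (grey), RS (blue) and ES (red) library, without the markers at 10 CPM or more in RS, and with group means as bars. Macrophage and red blood cell sums were highest in ES and the Leydig sum in PAC. The Sertoli sum was highest in ES as drawn. With Cyp19a1 and Amhr2 kept it was highest in PAC through Cyp19a1, since Amhr2 had 186 CPM in ES and 40 CPM in PAC.

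The order of the groups thus differed by cell type: macrophage and blood RNA was highest in ES and Leydig RNA in PAC, while for Sertoli markers the order of ES and PAC turned on Cyp19a1, with 1220 CPM in PAC. Insl3, a Leydig hormone, had 1.35, 1.72 and 2.5 CPM in ES, at most 0.197 CPM in RS and 23.4, 21.4 and 34.1 CPM in PAC. Of the called Leydig markers 10 of 11 lay below every PAC library, and of the called Sertoli markers 21 of 22 lay above.

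The size of the rise differed between the lists. Rises of at least 8-fold (log2 of 3 or more) were found in 761 of 26030 features tested, or 2.92%, and in 4.34% of coding genes. They were found in 19 of 23 Sertoli and 5 of 6 red blood cell markers. Of the listed markers, 11 of 25 Sertoli and 1 of 9 red blood cell markers reached 1 CPM in RS, against 23 and 5 in ES. Markers low in RS could be tested through the libraries where they are high, so a large fold was favoured in advance. Their sizes are therefore not compared like for like with lists well expressed in RS. Of 12 Leydig markers 8 had a fitted rise of this size, but 1 of them, Lhcgr, was below 3 counts in every ES and RS library. Only 1 of the 12 reached 1 CPM in RS, and the filter on low counts also counted the PAC libraries, where most Leydig markers were highest. They were found in no tested gene of the acrosomal, fusion, ADAM, CatSper, fibrous sheath, axoneme, manchette, mitochondrial sheath or theca lists, and in the nuclear condensation list in H1f6 and H2bc1, both below their PAC level. The median log2 difference of the called risers was 4.82 for Sertoli markers, 1.29 for nuclear condensation, 1.70 for the fibrous sheath and 0.84 for the theca.

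Other lists held both sizes. Of 40 tested glutathione and redox enzymes, 21 were higher and 5 lower (9 lower with total counts alone). Gstm5, a sperm glutathione transferase, stood at 16819, 13247 and 10910 CPM in ES and at 4773, 5376 and 5263 CPM in RS (log2 1.41, SE 0.18, adjusted p = 8.92e-05), while 10 others rose at least 8-fold, each from under 2 CPM in RS, such as Gstm7 (1.43 to 46.9 CPM), Gsta4 (1.98 to 41.2 CPM) and Gstp1 (0.492 to 11.7 CPM). In the lysosome list, 20 of 38 were higher and 3 lower (7 lower with total counts alone), and the 5 largest risers were Ctsl, Psap, Scarb2, Lipa and Ctsb; Ctsl, also on the Sertoli list, stood at 88.8, 79.6 and 55.6 CPM in ES and at 3.56, 3.39 and 2.51 CPM in RS. Among tubulins, 9 of 17 were higher, and Tuba1a (1.83 to 33.2 CPM) and Tubb5 (1.28 to 31.7 CPM) had rises of log2 4.18 and 4.61. Like the somatic markers, these genes were higher in ES than in RS; whether somatic RNA has a part in their rise was not tested.

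The spermatogonial list behaved likewise, with 12 of 21 higher and 1 lower, or 7 higher with a filter of 1 CPM in 3 libraries. Id4, at 6.99 CPM in RS and 18.2 CPM in ES, was the most abundant of the 12. Etv5 had 0.175 CPM in RS and 3.99 CPM in ES, and it is also expressed in Sertoli cells. Gfra1, a receptor of spermatogonial stem cells, was the one that fell, from 24.8 to 12.5 CPM. Of the genes outside all lists, those with the largest rises at 10 CPM or more in ES were Gatm, Peg10, Serpina3a, Dmrta1, Gm32266 and Scd2. Gatm, an enzyme of creatine synthesis, stood at 11.2, 25 and 34.7 CPM in ES and at 0.512, 0.437 and 0.204 CPM in RS (log2 5.93, SE 0.48, adjusted p = 7.85e-06). Their log2 differences ran from 5.93 to 7.76. They were chosen for their size, so the range is not compared with that of any list. Gm32266, at 7.76, had no count in 2 of the 3 RS libraries, so its fitted value depends on the prior count. Whether these genes come from germ or somatic cells was not tested. Immediate early genes, a sign of stress during cell preparation, gave 3 higher and 4 lower of 25, shares below those of all features, with 5 higher without RS replicate 2 and 2 lower without RS replicate 1, and with Fos at 3.86 CPM in RS and 1.8 CPM in ES.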

How the data were processed

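The authors deposited 1 table of estimated counts and 1 of FPKM over 50493 features, with 3 libraries each of elongating spermatids, round spermatids and pachytene spermatocytes. Per the submitters' processing notes HISAT2, StringTie and build GRCm38.p6 were used, with no versions named. Of the deposited counts 18.85% were not whole, so counts were rounded. The authors' FPKM values were used only as an alternative, as log2 with a pseudocount of 0.1 or 1 in limma. All 9 libraries were fitted in 1 edgeR model (filterByExpr with a minimum count of 10, TMM, robust quasi-likelihood test, two-sided, Benjamini-Hochberg adjustment over 26030 features), and the contrast was ES minus RS. A further 24463 features had too few counts. The common biological coefficient of variation was 0.24. SE is the log2 difference divided by the square root of F. The script was tested on simulated counts.

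Symbols and coordinates matched 21726 of 21877 NCBI genes and 15734 of 21104 RefSeq transcripts, and 7512 assembled transcripts carry no symbol. Of the 44 lists' entries 11 had no match. The members and lists were chosen with earlier results of these data known, so their counts are descriptions. Named genes were, for each list, the 3 most abundant called members in the commoner direction and 2 in the other, the 6 most abundant and 6 largest changes each way outside the lists, 4 non-coding genes each way and 24 set genes. Not all of these are given above, and further members were named after their values were seen. Replicates differed by more than counting noise, and ES replicates differed more than RS replicates. A chi-square per degree of freedom, which sets differences against counting noise, was 7.75 to 14.7 between RS libraries. Between ES replicates 2 and 3 it was 41.9, and between ES replicate 1 and the others 151 and 157. The fit shared its estimate of spread between the groups. A floor of 3 counts was 0.0819 to 0.162 CPM, which covers counting error only. Alternatives were RLE, upper-quartile and total-count scaling, other filters, ES and RS alone, a replicate block, DESeq2, FPKM and leaving out each library. The software was edgeR 4.0.16, DESeq2 1.42.0 and limma 3.58.1 under R 4.3.3, with matplotlib 3.10.9 and pandas 2.3.3 under Python 3.11.15.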

Additional observations from a re-analysis of the deposited data

How the results depend on the processing

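Over all features, 6374 were higher and 5752 lower. With FPKM values and a pseudocount of 0.1 the numbers were 4114 and 8674, with a pseudocount of 1 they were 4364 and 8934, and with no filter 3975 and 8393. Leaving out 1 library at a time gave 4976 to 6625 higher and 4647 to 6173 lower, and leaving out the 4 abundant assembled transcripts, a choice made after seeing the data, gave 6371 and 5754. A replicate block gave 6407 and 5968. Same-numbered ES and RS libraries' deviations correlated at 0.065, -0.053 and 0.138. With so few libraries in a group, such correlations cannot tell whether the numbers mark pairs. The main fit used no pairing. On total counts alone the sums over all listed markers were 664 CPM in ES and 95.9 in RS for Sertoli cells (766.3 and 87.97 with TMM), 30.23 and 4.58 for Leydig cells, 28.53 in ES for peritubular and vascular cells and 369 in RS for epididymal epithelium. Several medians changed sign with total counts alone, FPKM with a pseudocount of 0.1, FPKM with a pseudocount of 1 and FPKM with no filter. Those larger with TMM than the spread between the libraries' medians were histone removal (-0.06, -0.25, -0.22 and -0.25), germ cell glycolysis (-0.01, -0.09, -0.09 and -0.03, and from -0.01 to 0.36 on leaving out 1 library), autophagy (-0.03, -0.13, -0.07 and -0.13), coding genes (-0.14, -0.16, -0.08 and -0.07) and, in the first 3, coding genes on X (-0.03, -0.04 and -0.02). Medians within that spread changed sign in all 4 as well. Among them were the PIWI pathway (0.25 with TMM, then -0.06, -0.20, -0.12 and -0.18), meiotic prophase (0.17, then -0.13, -0.27, -0.20 and -0.25) and the fibrous sheath (0.04, then -0.29, -0.28, -0.28 and -0.28). The median of RefSeq non-coding transcripts was 0.00 with no filter on counts. Parp1, higher in the count test, had log2 differences of -0.29, -0.28 and -0.29 in the FPKM fits. The cause of these changes was not tested. Of single-gene values over all settings, 4701 either kept direction and call or stayed uncalled. The uncalled ones could change sign, as Ybx2 did from log2 0.22 to -0.12 with total counts alone. A further 366 lost the call, 9 gained it, and 3 reversed with a call in the main or the other fit. Counts of listed genes called lower rose, and those called higher fell, on the FPKM and total-count scales for most lists.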
